A study of Mus musculus with 6 samples.

Results

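Prph, Nefl, Nefm, Nefh, Ina, Krt1, Vim and Nes are 8 of the 32531 gene rows measured in mouse thalamus, and all 8 encode intermediate filament proteins. They were taken by name, and the group was chosen on the high ratio of immunopurified to input RNA of Prph and Krt1 in these same libraries. Their ratios are therefore given as a description with no p-values, and no test is read for them. Of all gene rows, 16496 passed the filter on low counts and were tested, and all 8 members were among them.

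RNA was collected by translating ribosome affinity purification (TRAP), in which a ribosomal protein fused to EGFP is made in chosen cells and its ribosomes are pulled out of a tissue homogenate with antibodies to EGFP. There were 3 immunopurified libraries (IP) and 3 libraries of the thalamic homogenate (Input), numbered 1 to 3 in each group. All 6 came from untreated adult mice of line JX883, which carries the Slc17a6-EGFP/Rpl10a transgene, so that no library came from mice without the tag and binding to the beads alone was not measured. Slc17a6 encodes the vesicular glutamate transporter of most relay neurons of the thalamus, and the tagged cells are those in which the transgene is active in this line. Input, too, is labelled as ribosomal-bound RNA. Nothing in the labels ties the replicates to different animals, and p-values here cover the spread between libraries, which may be technical only.

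Intermediate filaments are rope-like polymers of long helical proteins that give cells their tensile strength, and each cell type builds them from its own members of the family. In neurons the light, medium and heavy neurofilament proteins (Nefl, Nefm, Nefh) and alpha-internexin (Ina) copolymerise and set the calibre of axons. Peripherin (Prph) joins them mainly in neurons that send axons out of the central nervous system, and in some central groups. Vimentin (Vim) is typical of vascular, immature glial and connective tissue cells, nestin (Nes) of neural progenitors and vessels, and keratin 1 (Krt1), a type II keratin, of the upper layers of the epidermis, where it pairs with Krt10.

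What the 8 proteins share is the end of their central helical rod, a stretch that is needed for filament assembly. The coding bases of that stretch are shown for Krt1, Vim and Nes beside the neuronal members. They were found in the GENCODE M21 transcripts of all 8 genes by a search of the translated frames for a set pattern of amino acids. The capitals mark the 14 of 27 bases that were the same in all 8 genes. Part of this identity was fixed by the pattern searched for.
Prph: aCcTACAggAagCTacTgGAaGggGAg
Nefl: gCtTACAgaAaaCTctTgGAaGgcGAa
Nefm: gCgTACAggAaaCTccTaGAgGggGAa
Nefh: gCtTACAgaAagCTccTgGAaGgcGAa
Ina: gCtTACAggAagCTccTgGAaGgtGAa
Krt1: aCaTACAagAaaCTtcTgGAaGgaGAg
Vim: aCcTACAggAagCTgcTgGAaGgcGAg
Nes: aCaTACAggActCTgcTgGAgGctGAg
The Prph stretch covers codons 431 to 439 of 507 in transcript Prph-202. Vim was nearest to it in these bases, with 25 of 27 the same, and Nefl farthest, with 19. Likeness at this site does not follow the split between neuronal and other filaments, since Krt1 and Ina each shared 22 bases with Prph.

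Over their whole length the transcripts share only short runs of identical bases. Over the 28 pairs of members the longest run of identical bases was 35, between Prph and Nefm, the shortest 11 and the median 14. Opposite-strand neighbours overlap Nefl and Ina. In the annotation an exon of a Nefm transcript lies over 1108 bases, or 32.8%, of the Nefl transcript on the opposite strand, and Nt5c2 lies over 456 bases, or 14.1%, of the Ina transcript. Whether the counting used strand is not given in the sources used here, so in these stretches reads of the gene and of its neighbour may not be told apart. Nt5c2 itself had a log2 fold change of 0.02 (edgeR quasi-likelihood test, adjusted p = 0.962).

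The 8 genes lie on 6 chromosomes, and 4 of them had an entry among the RefSeq promoters of GRCm38.p6. The 100 bases before the annotated start are shown, 5′ to 3′ on the gene's strand, because Prph and Vim, which lay on opposite sides of the comparison, both hold the letters TATAAA, written in capitals. They are Prph (chr15:99055074-99055173, plus strand), Vim (chr2:13574211-13574310, plus strand), Ina (chr19:47014581-47014680, plus strand) and Nes (chr3:87970993-87971092, plus strand).
Prph: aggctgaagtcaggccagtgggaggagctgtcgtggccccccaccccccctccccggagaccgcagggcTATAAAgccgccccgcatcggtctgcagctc
Vim: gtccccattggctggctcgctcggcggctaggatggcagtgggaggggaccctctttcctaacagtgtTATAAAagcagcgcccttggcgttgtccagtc
Ina: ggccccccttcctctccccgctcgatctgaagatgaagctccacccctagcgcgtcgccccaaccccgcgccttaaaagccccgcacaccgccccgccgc
Nes: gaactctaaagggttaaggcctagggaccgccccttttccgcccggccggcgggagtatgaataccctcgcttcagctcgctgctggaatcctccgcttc
TATAAA began 31 bases before the start in Prph, whose mRNA was higher in IP, and 32 bases before it in Vim, whose mRNA was lower. Of 32851 mouse promoters, 3.80% held these letters on the sense strand within 100 bases of the start, and 12.4% held them on either strand within 250 bases. Over those 250 bases CCAAT was found in Vim alone of the 4, against 33.8% of all promoters. GGGCGG was found in Prph, Ina and Nes, on the antisense strand, against 32.7% of all promoters on either strand. None of these motifs is part of another, and a match describes the window, not a bound site.

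Gene reads summed to between 52068141 and 54421395 in the IP libraries and between 44081149 and 47340321 in the Input libraries. Values below are counts per 1000000 gene reads (CPM), scaled with TMM factors, with SD over n = 3 libraries a group. Log2 fold changes are of IP minus Input, and their median over all tested genes was -0.04. The SE beside them is the absolute log2 fold change divided by the square root of the F statistic of the edgeR test. Reads at several places made up 40.8% of the records in IP and 25.8% in Input on average, and ambiguous ones 1.79% in IP and 9.34% in Input. The effect of these shares on the members was not tested.

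Prph showed the widest positive gap of the 8. It had 15.4, 12.4 and 14.8 CPM in IP replicates 1, 2 and 3, against 1.89, 1.6 and 0.295 CPM in Input replicates 1, 2 and 3. These were 760, 660 and 802 reads in IP against 87, 78 and 13 reads in Input. The groups did not overlap, the IP libraries lay close together, and Input replicate 3 was the low one. The means were 14.2 ± 1.57 CPM in IP and 1.26 ± 0.850 CPM in Input, an 11.3-fold higher level, with a log2 fold change of 3.49 ± 0.62. Without Input replicate 3 the log2 fold change was 3.03, and without Input replicate 1 it was 3.90. On the log2(CPM + 0.5) scale, the pairs with the same number differed by 2.73, 2.62 and 4.26 for replicates 1, 2 and 3. The gene lies at chr15:99055174-99058978 on the plus strand (GRCm38) and its principal transcript has 8 exons.

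Krt1, at chr15:101845426-101850794 on the minus strand, lay 2.79 Mb from Prph on the same chromosome. It had 29.4, 32 and 40.2 CPM in IP replicates 1, 2 and 3, against 6.35, 10.4 and 5.5 CPM in the Input ones. In reads this was 1448, 1704 and 2188 in IP against 292, 506 and 242 in Input. Every IP library lay well above every Input library. The means were 33.9 ± 5.67 CPM in IP and 7.40 ± 2.60 CPM in Input, 4.58-fold higher, with a log2 fold change of 2.19 ± 0.30 that ranged between 2.03 and 2.52 when single libraries were left out.

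**Figure D1:**
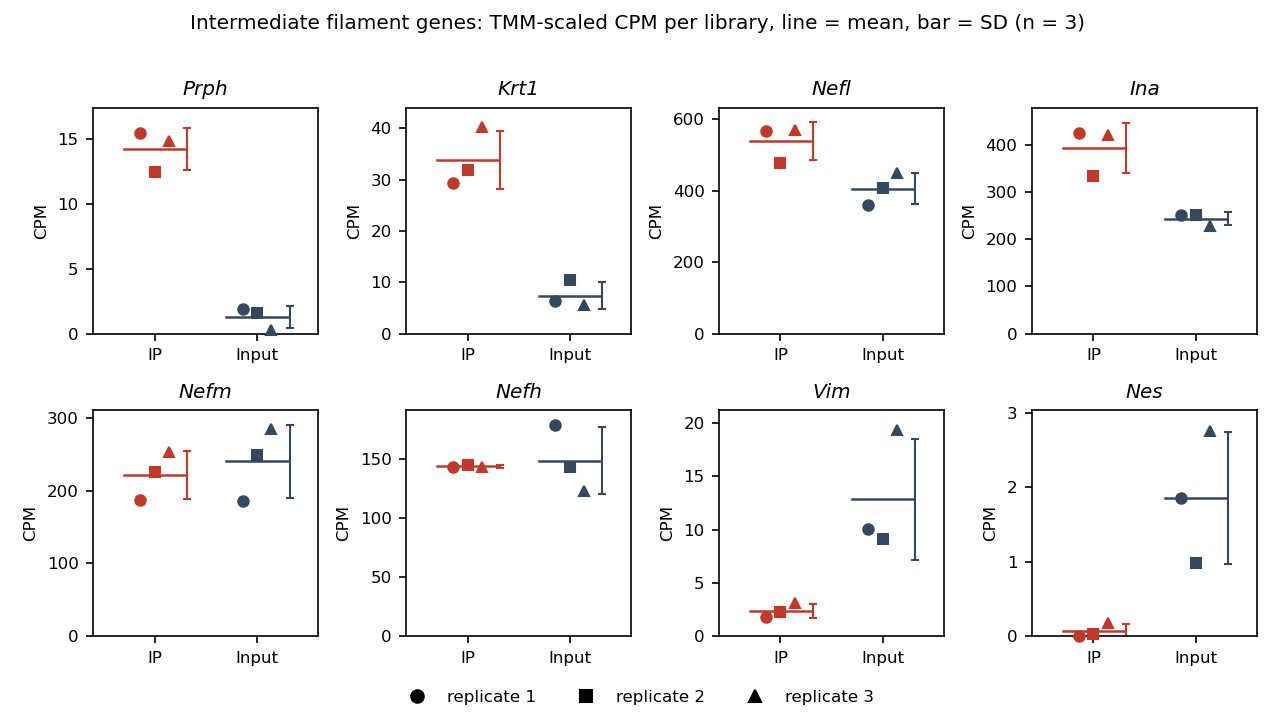
TMM-scaled CPM of the 8 genes in each library, IP left of Input, on axes that start at 0 and differ between panels. Markers give the replicate number, lines the group means and bars the SD (n = 3). Prph, Krt1, Nefl and Ina lie higher in all 3 IP libraries, Vim and Nes lower in all 3, and Nefm and Nefh overlap.

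Among the 4 genes of the central axonal filament, Ina and Nefl were higher in IP by small margins. Nefl, the subunit on which neurofilament assembly depends, had 567, 476 and 569 CPM in IP replicates 1, 2 and 3, against 361, 406 and 449 CPM in the Input ones. Its groups did not overlap, but the lowest IP and the highest Input library were close, and the log2 fold change was 0.41 ± 0.17. Ina, the subunit made earliest in developing central neurons, had 425, 333 and 421 CPM in IP, against 251, 251 and 228 CPM in Input. Its means were 393 ± 52.0 CPM in IP and 243 ± 13.3 CPM in Input, with a log2 fold change of 0.69 ± 0.17.

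Nefm and Nefh, whose long tails project from the filament, overlapped between the groups. Nefm had 187, 225 and 253 CPM in IP, against 186, 249 and 285 CPM in Input. Its groups overlapped, with a log2 fold change of -0.11 ± 0.21 that was 0.04 without Input replicate 3 and 0.01 without IP replicate 1. Nefh had 143, 145 and 143 CPM in IP, against 179, 143 and 123 CPM in Input. Its IP libraries lay inside the Input range, and the log2 fold change was -0.05 ± 0.19, or 0.12 without Input replicate 1.

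Vim and Nes were lower in IP. Vim had 1.80, 2.29 and 3.09 CPM in IP replicates 1, 2 and 3, against 10.1, 9.09 and 19.3 CPM in the Input ones. In reads this was 89, 122 and 168 in IP against 463, 444 and 848 in Input. The groups did not overlap, and Input replicate 3 was the high one. The log2 fold change was -2.42 ± 0.43, and -1.99 without that library.

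Nes was close to the floor of counting in IP, with 0, 2 and 10 reads against 85, 48 and 121 reads in Input. These were 0, 0.0376 and 0.184 CPM in IP and 1.85, 0.983 and 2.75 CPM in Input. In the library with no read, 3 reads, the number a count of 0 allows, would be 0.0608 CPM, a limit for counting error only. The mean over the 3 IP libraries was 0.0738 ± 0.0972 CPM and that over the Input libraries 1.86 ± 0.883 CPM, 25.2-fold higher in Input. The fitted log2 fold change was -4.59 ± 1.22, and it was -6.41 without IP replicate 3, which held most of the IP reads. In such bulk RNA, fewer cells of a type among those contributing to a library and less RNA from each cannot be told apart.

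The members were chosen on this comparison, so the following counts are no test of them and nothing is read from them. In the fit over all genes, 3 of the 8 (Prph, Ina, Krt1) lay past the edgeR threshold of 0.05 on adjusted p as higher in IP, as did 9.60% of all tested genes. Vim and Nes lay past it as lower, as did 15.6% of all tested genes. Groups did not overlap in 6 of 8 members, and in 44.9% of all tested genes.

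Per kilobase of transcript, Nefl led in both groups and Nes came last. Prph, in spite of its ratio, was the rarest of the 5 neuronal filament mRNAs. In IP the order of mean CPM per kb was Nefl (159 ± 15.7), Ina (121 ± 16), Nefm (66.4 ± 9.97), Nefh (36.0 ± 0.208), Krt1 (13.8 ± 2.31), Prph (7.62 ± 0.845), Vim (1.09 ± 0.296) and Nes (0.0121). In Input it was Nefl (120 ± 13.0), Ina (75.1 ± 4.12), Nefm (71.9 ± 15), Nefh (37.2 ± 7.17), Vim (5.84 ± 2.56), Krt1 (3.01 ± 1.06), Prph (0.677 ± 0.456) and Nes (0.304). Neighbours in the IP order did not overlap in their libraries. In Input, Ina and Nefm overlapped, as did Vim and Krt1, and Prph and Nes. Vim thus had the higher mean beside Krt1 in Input but overlapped it, and lay below both Krt1 and Prph in every IP library.

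The share of Prph in the neuronal filament mRNA was higher in every IP library. Over Nefl, Ina, Nefm, Nefh and Prph, summed per kb, Prph made up 2.07%, 1.88% and 1.90% in IP replicates 1, 2 and 3, against 0.355%, 0.278% and 0.0496% in the Input ones. Nefl made up much the same share in each, 40.7% ± 1.17 in IP and 39.3% ± 2.15 in Input. Ina took 32.9%, 29.1% and 31.1% in IP, against 27.1%, 25.1% and 22% in Input, with no overlap. Nefm took 14%, 19.1% and 18.1% in IP, against 19.5%, 24.2% and 26.7% in Input, again with no overlap. Nefh took 9.26% ± 0.859 in IP and 12.3% ± 3.10 in Input. As shares of 1 sum these values are tied to each other, and the lengths are those of 1 annotated transcript a gene.

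Ratios within a library do not depend on how libraries are scaled to each other. The ratio of Prph to Nefl per kb was 0.0493, 0.0473 and 0.047 in IP replicates 1, 2 and 3, against 0.0095, 0.00714 and 0.00119 in the Input ones. That of Krt1 to Prph was 1.45, 1.96 and 2.07 in IP, against 2.55, 4.92 and 14.1 in Input. That of Nefl to Nefm was 3.00, 2.09 and 2.22 in IP, against 1.92, 1.61 and 1.56 in Input.

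**Figure D2:**
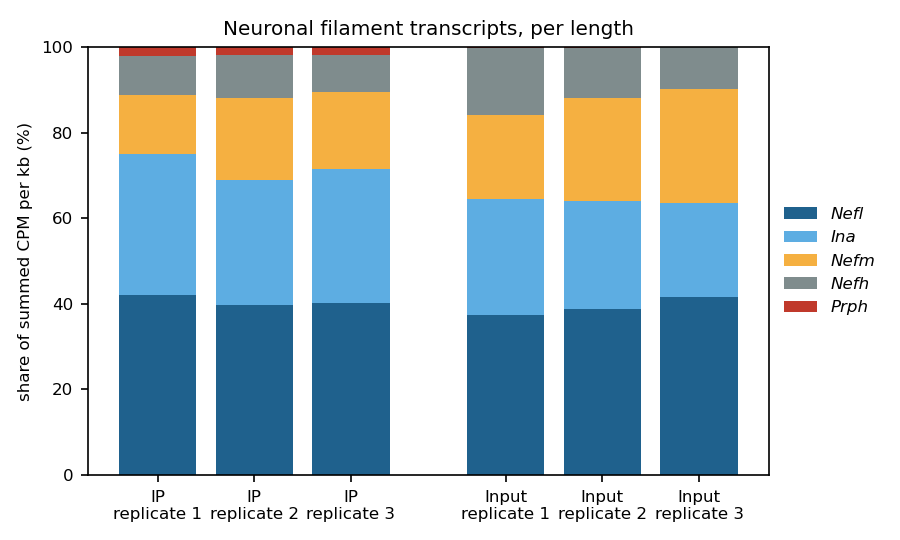
Shares, in percent of the summed CPM per kb, of the 5 neuronal filament mRNAs in each library, IP left of Input. Prph, the thin top band, is near 2% in the IP libraries and under 0.4% in the Input libraries, while Nefl keeps close to 40% in both groups.

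Among the 22 other genes of the family that were tested, 2 rose and 4 fell, where 9.60% of all tested genes rose and 15.6% fell. Of the 11 other filament genes that are not keratins, all were tested, 0 rose, 2 fell and 9 did not pass, with a median log2 fold change of -0.36. The 2 that fell were Gfap, the filament of astrocytes, and Des, that of muscle cells. Gfap had 0.73, 1.2 and 1.58 CPM in IP replicates 1, 2 and 3, against 21.8, 25.9 and 43.7 CPM in the Input ones (log2 fold change -4.69 ± 0.43, adjusted p = 0.000283). Des had no read in any IP library, against 16, 12 and 10 reads in Input, and was at least 14.3-fold lower, taking 3 reads over the whole group as the floor. It passed the edgeR test (adjusted p = 0.022), but with the replicate block it did not (0.0617), and the lens gene Bfsp2 did (0.0498). Des also lost its call in 5 of the 6 fits without 1 library, all but the one without Input replicate 3, with adjusted p up to 0.0753. Synm, whose protein needs a partner such as vimentin, had a log2 fold change of -0.58 ± 0.28 (edgeR adjusted p = 0.170). Lmna, of the nuclear lamina, had 0.44 ± 0.39 (edgeR adjusted p = 0.456).

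Of 51 other keratin genes, 18 had no read in any library, 22 had too few to be tested (at most 74 in a library), and 11 were tested. Of these 2 rose, 2 fell and 7 did not pass, with a median log2 fold change of 0.90. Krt10, the partner of Krt1 in the epidermis, had 3.29, 5.19 and 5.44 CPM in IP, against 3.02, 4.36 and 3.34 CPM in Input. Its groups overlapped, and its log2 fold change was 0.38 ± 0.42 (edgeR adjusted p = 0.557). Krt222, a headless type I keratin-like gene, was the most abundant of the list and rose by 0.90 ± 0.24, with 163, 135 and 157 CPM in IP against 108, 75.7 and 59.6 CPM in Input (edgeR adjusted p = 0.0245). The other that rose was Krt27, a keratin of the inner root sheath of hairs, with 23, 78 and 22 reads in IP against 5, 1 and 3 in Input (edgeR adjusted p = 0.0416, or 0.103 once the replicate block was added). Krt27 lost its call without any 1 of the 6 libraries (adjusted p up to 0.191), and its log2 fold change of 3.52 was 2.69 without IP replicate 2. It is named because there were only 2, after its values were seen.

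Krt20, a keratin of simple epithelia, fell to 0.548, 0.395 and 1.38 CPM in IP, against 5.81, 4.59 and 3.63 CPM in Input (edgeR adjusted p = 0.0179). Krt9, a keratin of foot sole skin, had 0.203, 0.113 and 0.405 CPM in IP against 0.304, 2.17 and 22.3 CPM in Input (edgeR adjusted p = 0.0302). Its call rests on Input replicate 3, without which the log2 fold change was -2.34 in place of -5.09 and the adjusted p 0.150. Krt9 also lost its call without each IP library in turn (edgeR adjusted p 0.0863, 0.0984 and 0.0647 for replicates 1, 2 and 3), and leaving out IP replicate 3 gave a log2 fold change of -5.70. Krt222 and Krt20 each kept theirs in 2 of 6 fits that leave out 1 library. Krt222 lost it without IP replicate 1, 2 or 3 or Input replicate 2, with an adjusted p of at most 0.0845. Krt20 lost it without IP replicate 1 or 2 or Input replicate 1 or 2, with at most 0.0582, and its log2 fold change of -2.59 was -3.30 without IP replicate 3.

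**Figure D3:**
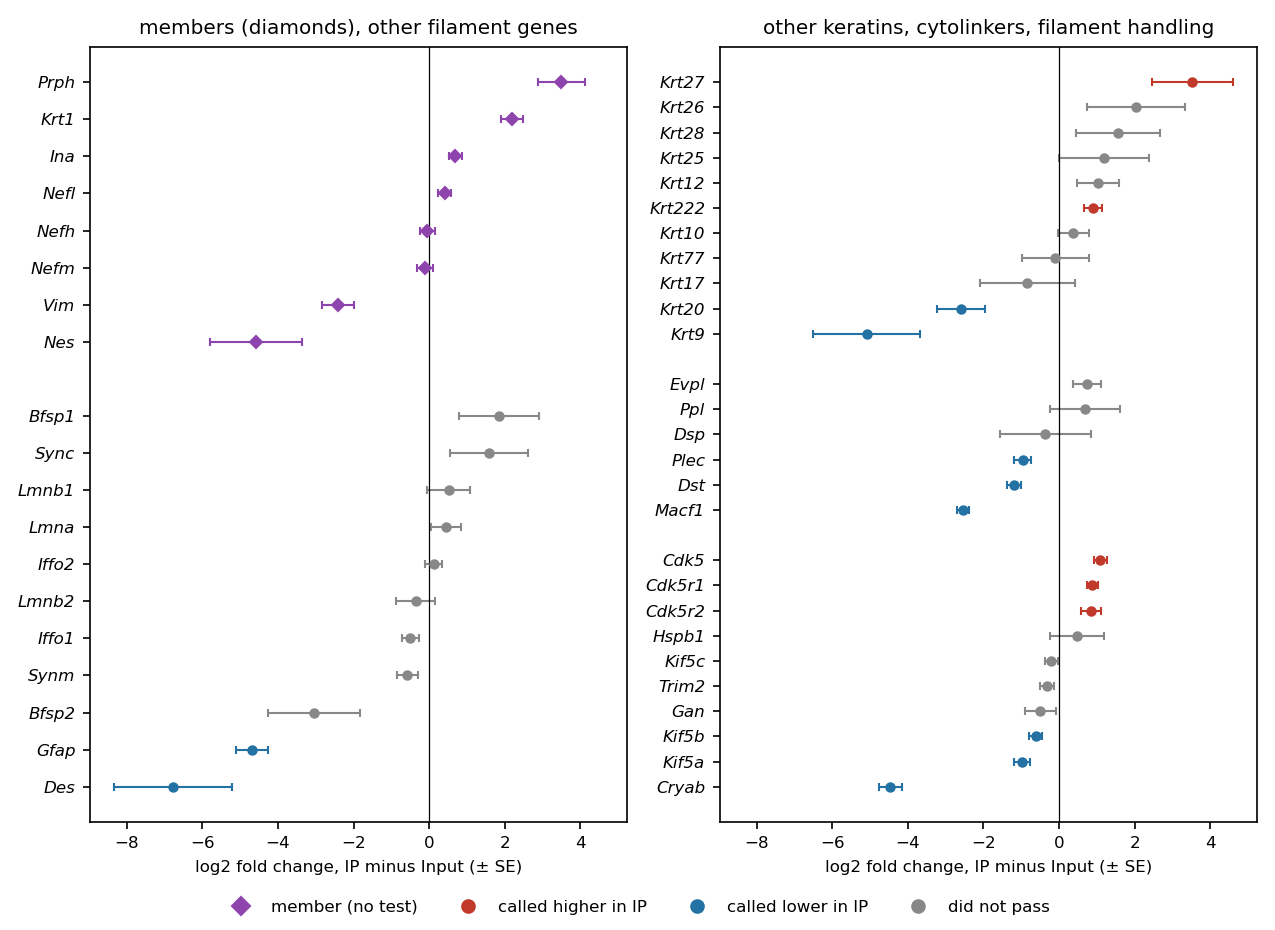
Log2 fold change of IP minus Input with its SE for the tested members (diamonds, no test), other filament genes, other keratins, cytolinkers and 10 of the 11 filament handling genes. Red marks genes called higher in IP, blue called lower, grey those that did not pass; Gfap, Des and Cryab lie far left, and Des, with no read in IP, stands at a fitted value that is no bound.

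Of 7 cytolinkers, the large proteins that tie filaments to other parts of the skeleton, 6 were tested, 0 rose and 3 fell, with a median of -0.66. Macf1, which joins actin and microtubules, had 110, 87.7 and 97.5 CPM in IP, against 588, 558 and 574 CPM in Input (log2 fold change -2.54 ± 0.17, adjusted p = 7.69e-05). Dst, whose neuronal forms bind neurofilaments and microtubules, fell by 1.19 ± 0.18 (edgeR adjusted p = 0.00287). Plec, which links intermediate filaments of many kinds, had a log2 fold change of -0.96 ± 0.22 (edgeR adjusted p = 0.0144). Plec lost its call without IP replicate 2 (adjusted p = 0.0613 in edgeR) or IP replicate 3 (0.0600).

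Genes that modify, chaperone or carry filaments were split. All 11 were tested, and 3 rose, 3 fell and 5 did not pass, with a median of -0.21. Those that rose encode the kinase that phosphorylates neurofilament tails and its activators. Cdk5 had 123, 125 and 140 CPM in IP against 64, 62.5 and 55.3 CPM in Input, a rise of 1.09 ± 0.17 (edgeR adjusted p = 0.00323). Its activator Cdk5r1 rose by 0.88 ± 0.15, with 348 ± 8.72 CPM in IP and 189 ± 8.95 CPM in Input (edgeR adjusted p = 0.00519). The other activator, Cdk5r2, rose by 0.84 ± 0.26 with a borderline call (edgeR adjusted p = 0.0462). That call was lost in 5 of the 6 fits without 1 library, all but the one without Input replicate 3, with adjusted p up to 0.138.

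Of those that fell, Cryab, a small heat shock protein that binds Gfap and vimentin filaments, had 6.63, 12.3 and 13.8 CPM in IP, against 230, 240 and 247 CPM in Input (log2 fold change -4.46 ± 0.30, adjusted p = 7.69e-05). Of the 3 kinesin heavy chains that carry neurofilaments along axons, Kif5a fell by 0.98 ± 0.22 (edgeR adjusted p = 0.0127) and Kif5b by 0.62 ± 0.17 (0.0280). Kif5a lost its call without IP replicate 2 (0.0582) or 3 (0.0518), and Kif5b in 5 of the 6 fits without 1 library, all but the one without IP replicate 1, with adjusted p up to 0.114. Kif5c had a log2 fold change of -0.21 (edgeR adjusted p = 0.396).

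The labels were set against markers of thalamic cells. Of 8 thalamic neuron genes 3 rose: Lhx2 by 2.02 (edgeR adjusted p = 0.00033), Calb2 by 1.91 (0.00389) and Tcf7l2 by 1.15 (0.0127, and 0.0501 without IP replicate 2). The other 5 did not pass in the main test: Gbx2 (1.36), Slc17a6, Lef1 (0.32), Prkcd (0.14) and Rora (-0.13). Their groups overlapped in all but Gbx2. Slc17a6, for which the line is named, had 6490, 2190 and 2200 CPM in IP replicates 1, 2 and 3, against 3150, 875 and 477 CPM in the Input ones (log2 fold change 1.27 ± 0.68, edgeR adjusted p = 0.206, and 0.000246 under the replicate block). The summed level of the 8 genes was 10700, 7080 and 6390 CPM in IP and 6800, 4060 and 2240 CPM in Input. Of 8 pan-neuronal genes 3 rose (Uchl1, Stmn2, Tubb3) and Map2 fell, while 5 rose under the replicate block, with summed levels between 18300 and 25400 CPM in IP and between 15000 and 16800 CPM in Input. The call of Stmn2 was lost without IP replicate 2 (edgeR adjusted p = 0.0567), and that of Tubb3 without IP replicate 2 or 3 or Input replicate 1 or 3 (up to 0.154).

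Input replicate 3, the low library for Prph, also had the lowest thalamic sum and the lowest habenular sum of the Input libraries. Of 6 habenula genes 4 fell, among them Tac2 by 5.11 (edgeR adjusted p = 0.00751) and Chrnb4 by 3.94 (0.00399). Chrnb3 fell by 3.82 (edgeR adjusted p = 0.0174), a call lost without IP replicate 2 or 3 or Input replicate 1 (up to 0.0618). Leaving out IP replicate 1 gave it a log2 fold change of -4.50, and leaving out Input replicate 1 one of -2.55. Chrnb4 fell by 2.92 without Input replicate 1. Their summed level was 28.7, 22.9 and 30.9 CPM in IP and 271, 164 and 64 CPM in Input. The part of the dissected region in the Prph values was not tested.

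Markers of the neurons best known for Prph were mostly lower in IP. Of 16 genes of motor and peripheral neurons 9 were tested, 0 rose and 4 fell, and Phox2a had no read in any library. With the replicate block 1 rose and 5 fell. Their summed level was 20.0, 19.5 and 23.6 CPM in IP and 47.8, 33.2 and 30.4 CPM in Input. Calca alone held 14.3, 15.5 and 15 CPM of this in IP and 5.22, 4.5 and 0.114 CPM in Input, so it was most of the IP sum. Chat, the enzyme that makes acetylcholine, fell to 0.381 ± 0.310 CPM in IP, against 3.56 ± 1.09 CPM in Input (edgeR adjusted p = 0.0156). Chat lost this call without IP replicate 2 (0.0578) or Input replicate 2 (0.0641), and its log2 fold change of -3.21 was -4.10 without IP replicate 3. Slc5a7, the choline transporter, fell by 3.21 (edgeR adjusted p = 0.0116), or by 2.24 without Input replicate 1. Runx1 fell by 2.95 (edgeR adjusted p = 0.0213), and the call was lost without any 1 IP library or Input replicate 3 (up to 0.0635). Without that Input library the log2 fold change of Runx1 was -1.81. Calca, a neuropeptide of sensory neurons, had 15 ± 0.593 CPM in IP, set against 3.28 ± 2.76 CPM in Input (log2 fold change 2.19 ± 0.91, edgeR adjusted p = 0.113), and it was the 1 gene of the list that passed as higher with the replicate block (0.023).

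Of 3 genes of histaminergic neurons, another central group known for Prph, Hdc fell to 0, 12 and 0 reads in IP, against 109, 146 and 59 reads in Input (edgeR adjusted p = 0.0369). Hdc lost its call without IP replicate 1 or 3 or Input replicate 1 or 2, with adjusted p up to 0.108. Its log2 fold change of -4.84 was -9.76 without IP replicate 2, the 1 IP library with reads, and -4.25 without IP replicate 3. The other 2 genes did not pass, although Maob was called higher under the replicate block (edgeR adjusted p = 0.000456). The summed level was between 59.5 and 131 CPM in IP and between 30.1 and 82.2 CPM in Input. Maob held 110, 104 and 48.1 CPM of it in IP and 54.6, 37.3 and 11.8 CPM in Input. The share of Hdc in it was small, with means of 0.0752 CPM in IP and 2.23 CPM in Input.

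Krt1 was set beside markers of epidermis. Of 15 such genes, 4 had no read in any library (Krt5, Krtdap, Flg and Pkp1), 5 were tested, 1 rose and 1 fell. Lor, a protein of the cornified envelope, had 6.85, 9.97 and 11.9 CPM in IP, against 2.28, 4.65 and 1.14 CPM in Input (log2 fold change 1.83 ± 0.54, adjusted p = 0.0377). Lor lost its call without IP replicate 2 (edgeR adjusted p = 0.0955), IP replicate 3 (0.108) or Input replicate 1 (0.086), and it reached 2.49 without Input replicate 2. Trp63, the transcription factor of basal keratinocytes, fell to 0.0541 ± 0.0937 CPM in IP, against 3.03 ± 0.834 CPM in Input (log2 fold change -5.77, edgeR adjusted p = 0.0148). All IP reads of Trp63 came from replicate 1, without which the fitted value was -10.22. The summed level of the list was 16.4, 22.3 and 23.6 CPM in IP and 12.4, 22.3 and 16 CPM in Input, so that the ranges overlapped.

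The lower levels of Vim, Nes and Gfap stood beside those of markers of glia and vessels. All 5 genes of oligodendrocyte precursors fell, with a median of -4.26, and 7 of 8 astrocyte genes fell, with a median of -4.00. The summed astrocyte level was between 103 and 138 CPM in IP and between 623 and 962 CPM in Input, and that of the precursors between 4.28 and 5.76 CPM in IP and between 105 and 109 CPM in Input. Aqp4, the water channel of astrocyte endfeet, fell by 4.6 (edgeR adjusted p = 0.000122).

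Of 8 endothelial genes 4 fell and 4 did not pass, with a median of -3.38, or -3.28 with Tie1, which had no read in IP, at its floor. Of 10 genes of mural cells and fibroblasts 9 were tested, 5 fell and 4 did not pass, with a median of -3.36, and the pericyte gene Rgs5 fell by 5.05 (edgeR adjusted p = 0.000144). Of 5 ependymal genes 3 were tested and 2 fell, with a median of -3.60. Summed levels in IP and Input were 1.75 to 2.45 CPM and 10.6 to 17.2 CPM for endothelium, 4.08 to 5.08 CPM and 35.6 to 61.4 CPM for mural cells and fibroblasts, and 1.46 to 6.11 CPM and 22.3 to 31.9 CPM for ependyma. Input replicate 3, the high library for Vim, was the highest Input library for mural cells and fibroblasts and the lowest for endothelium and astrocytes. The lists of habenula neurons and of motor and peripheral neurons had low medians too, -3.26 and -2.95. How far any of these cells account for the Vim and Nes values was not tested.

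**Figure D4:**
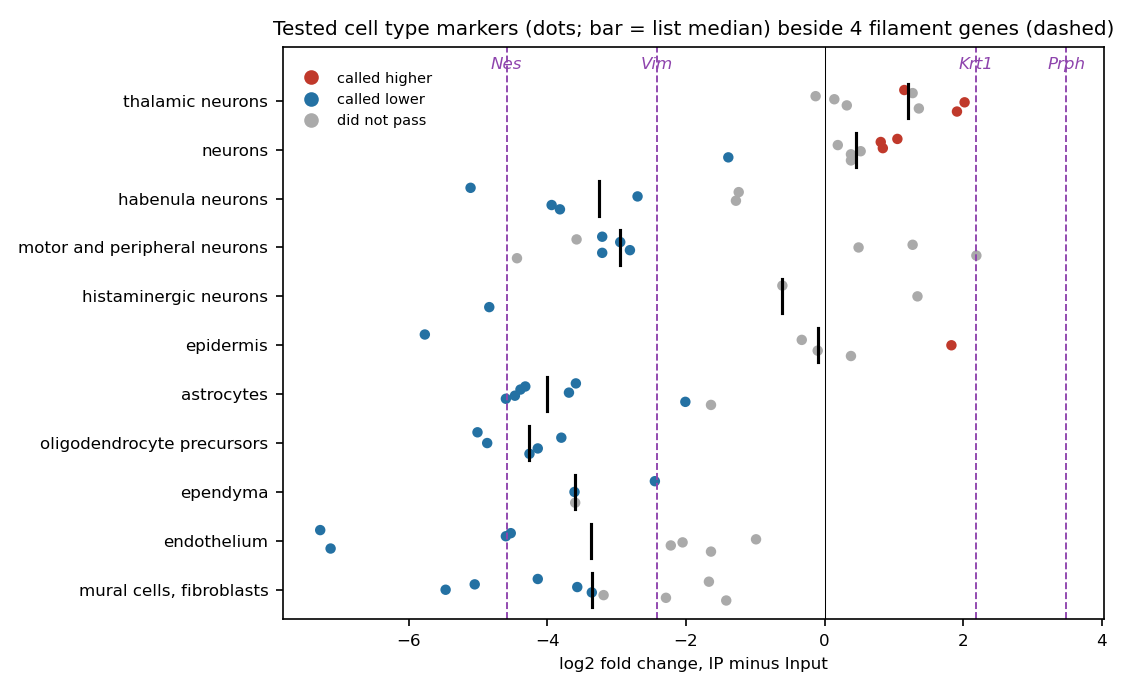
Log2 fold change of IP minus Input of the tested markers of 11 cell types (dots; red called higher, blue called lower, grey did not pass; black bar, list median), with dashed lines at Prph, Krt1, Vim and Nes. The medians of astrocytes, precursors, ependyma and vessels lie between -4.26 and -3.36, further left than Vim at -2.42. Those of habenula neurons (-3.26) and of motor and peripheral neurons (-2.95) also lie left of Vim. Nes at -4.59 lies left of every list median, and no list median lies near Prph at 3.49. A gene with no read in IP, such as Tie1, stands at a fitted value that is no bound.

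Genes with a pattern over the 6 libraries most like that of Prph were sought among the 14065 tested genes that averaged 1 CPM or more, by Euclidean distance between log2(CPM + 0.5) values centred on each gene. The nearest was Fam101a, at a distance of 0.72, with 6.69, 6.19 and 5.24 CPM in IP against 1.02, 0.880 and 0 CPM in Input. Like Prph it was lowest in Input replicate 3. Genes were picked here by likeness over these same libraries, so their differences between IP and Input are given with no test. Tmem114, at 0.94, and Gpx3, an extracellular glutathione peroxidase, at 1.02, came next. They too were lowest in Input replicate 3. Gpx3 had 137, 119 and 93.9 CPM in IP against 19.2, 29.3 and 10.3 CPM in Input.

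Krt1 had closer neighbours in pattern. Coa6, an assembly factor of mitochondrial cytochrome c oxidase, lay at a distance of 0.31, with 29.9, 36.9 and 44.2 CPM in IP against 8.55, 12.3 and 7.13 CPM in Input. Gchfr, a regulator of GTP cyclohydrolase, followed at 0.47 and Fxyd7, a regulator of the sodium pump in neurons, at 0.54. All of these genes were higher in each IP library than in each Input library, so the likeness includes that shared difference, over only 6 libraries.

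**Figure D5:**
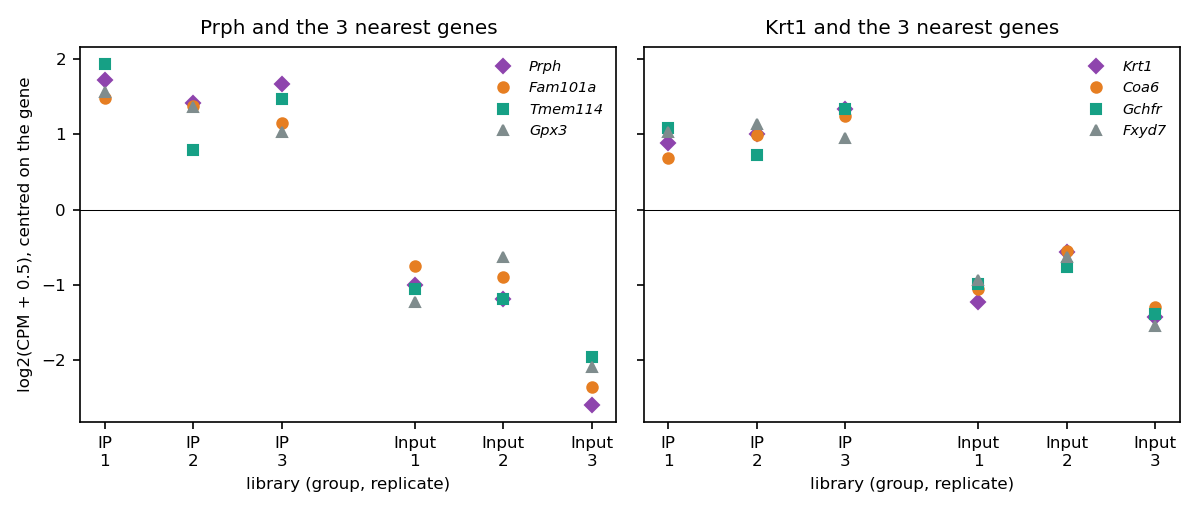
Log2(CPM + 0.5), centred on each gene, in the 6 libraries (IP left of Input) for Prph and Krt1 (diamonds) and the 3 tested genes nearest to each. Prph and its 3 neighbours are lowest in Input replicate 3, as are Krt1 and its 3 neighbours. Among the Input libraries, Krt1 and its neighbours are highest in replicate 2.

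Those genes next to Prph and Krt1 on the chromosome that were analysed did not pass the test or had too few reads for it. Tuba1c, an alpha-tubulin gene 17064 bases before Prph, had 148, 614 and 12 reads in IP against 107, 302 and 30 reads in Input (log2 fold change 0.68 ± 1.15, edgeR adjusted p = 0.710). Gm34284, 9160 bases after it, was not analysed here. Krt2, a type II keratin 27257 bases from Krt1 on the side of lower coordinates, had 1, 0 and 4 reads in IP and none in Input. Krt77, 7937 bases from Krt1 on the side of higher coordinates, had 49, 25 and 11 reads in IP against 25, 44 and 15 reads in Input (log2 fold change -0.10, edgeR adjusted p = 0.949).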

How the data were processed

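The authors deposited 6 tables of read counts per gene, 1 a library, all whole numbers. The submitters' processing notes name STAR 2.0.0e, HTSeq and mm10. The gene models behind the counts, the counting mode and the use of strand were not given in the sources used here. Groups and replicate numbers come from the titles, and each number was run on its own lane (3, 8 and 4 for numbers 1, 2 and 3), so lane and number cannot be told apart. Summary rows and 1 row that names no gene (0 to 4 reads) were left out.

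After filterByExpr and TMM scaling, edgeR 4.0.16 (R 4.3.3; limma 3.58.1, DESeq2 1.42.0) gave the two-sided quasi-likelihood test of IP against Input over all 16496 genes that passed, adjusted after Benjamini and Hochberg and called at 0.05. Adjusted p-values in the text are from this test. Members and gene lists were chosen with earlier results of these data known. The genes picked by rule from each list were the called ones with the largest changes. These were up to 3 in the main direction and 1 in the other, each with a mean of at least 1 CPM. Of those picked for oligodendrocyte precursors, astrocytes, endothelium, mural cells, fibroblasts and ependyma, only Aqp4 and Rgs5 are named. A few more genes are given as values for their role or because a count was small. Same-numbered libraries deviated together (correlations across genes 0.410, 0.181 and 0.216 for replicates 1, 2 and 3, from the numbers in the titles), so the numbers were taken to pair them; the main model leaves the replicate block out, as the labels state no paired test. No 2 libraries of a group agreed within sampling noise. Lengths, exons and overlaps are of GENCODE M21 on GRCm38, the assembly of mm10. Totals above 44081149 gene reads limit precision only for genes of few reads, and 3 reads are 0.0552 to 0.0681 CPM. Scaling, filters, DESeq2, limma-voom, the block and left-out libraries were tried as alternatives. The values of 1 filament handling gene are not reported here.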

Additional observations from a re-analysis of the deposited data

How the results depend on the processing

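Over 18 alternatives no fold change reversed among the members past the threshold in the main fit. Nefm and Nefh, which were not past it, changed sign in some fits, up to 0.04 and 0.12. Of 144 values 11 moved by more than the SD of the gene's own pair differences, all in Nefm, Vim and Nes. That SD was 0.92 for Prph and 0.1 for Nefm, so this rule was looser for Prph. Scaling kept Prph between 3.39 and 3.49, Krt1 between 2.10 and 2.19 and Nes between -4.66 and -4.58, and shifted the median of all genes by at most 0.09 (log2). Of all genes, 1583 were called higher and 2566 lower. With the replicate block 2624 were higher. On the lists Des and Krt27 lost their calls with it, and Nefl, Bfsp2, Avil, Calca, Maob, Slc17a6, Snap25, Eno2, Aldh1l1 and Ak7 gained one; among the list genes named here it changed no other call. Leaving out libraries or pairs gave 83 to 1640 higher and 651 to 2598 lower, the fewest without replicate 2. Members called ranged from 1 to 3 higher and 0 to 2 lower over those same fits. Other filament genes ranged from 0 to 1 higher (2 in the main test) and 1 to 4 lower, and linker and handling genes from 0 to 3 higher and 2 to 6 lower. Other filament genes called higher were 1 with no filter on low counts, with a minimum of 1 CPM in 3 libraries, with limma-voom and with the replicate block. Those called lower were 2 with that minimum, which leaves Des and Krt9 untested. The causes of the other changes were not tested. Depth limits Nes and the rare keratins.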
